A study of Mus musculus with 12 samples.

Results

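The total expression of each autosomal gene in the retinas of F1 hybrids was compared with the average of the 2 parental strains, C57BL/6J (B6) and Cast/EiJ (Cast). The retinas came from adult male mice aged 8 weeks, and each library was made from polyadenylated RNA of pooled retinas. The 12 libraries fell into groups of 3: F0 B6, F0 Cast, F1 B6xCast (C57BL/6J father, Cast/EiJ mother) and F1 CastxB6 (Cast/EiJ father, C57BL/6J mother). No group carried a treatment or an engineered allele. The F1 total of a library is the mean of its B6 and Cast allele values, and the mid-parent value is the mean of the F0 B6 and F0 Cast group means. Of 37991 genes in the tables, 34964 were autosomal, and the 14710 of these with 10 or more count equivalents in 3 or more libraries were compared.

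A hybrid that carries 1 copy of each parental allele is said to show additive expression when its level lies midway between the parents. It shows dominance when its level is that of 1 parent, overdominance when it exceeds both, and underdominance when it falls below both. An allele that differs through its own regulatory DNA is expected to keep its level in the hybrid, which gives additive totals, whereas regulators that diffuse between the alleles can produce any of these patterns.

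Count equivalents are the authors' normalized estimates of the reads of a gene, or of 1 allele of a gene, after reads that match several genes have been divided among them. Each F0 column and each F1 allele column was scaled to about the same total, so an F1 total has the scale of an F0 value. The unique hits, the whole-number counts of reads that fit a single gene (and in F1 a single allele), summed to between 8158534 and 11888819 per F0 library and between 8808577 and 12363291 per F1 library. F0 reads were mapped to a transcriptome of the animal's own strain, F1 reads were mapped to a hybrid transcriptome that holds both strains' alleles, and the F1 libraries alone were read on an additional sequencing lane. Generation, transcriptome and lane therefore cannot be told apart in any difference between F1 and F0. The labelled tissue carried its defining markers. The 9 rod markers, Gnat1 and Sag among them, summed to between 854255 and 927140 count equivalents per library.

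Differences were tested with limma on log2(count equivalents + 1), on which scale all log2 ratios are given and changes of low genes are understated. Benjamini-Hochberg adjustment ran over all 14710 genes, and a result is named a call where its adjusted p was below 0.05. Most genes lay close to the mid-parent value. The median log2 ratio of F1 to mid-parent was -0.01, with a median SE of 0.08, and 12588 genes (85.6%) lay within 1.25-fold of the mid-parent value. A departure was called for 1454 genes (9.88%), 622 with higher expression in F1 (4.23%) and 832 with lower expression (5.66%). Against a mid-parent averaged on the log scale the split turned, to 1057 higher and 740 lower with limma and 1053 higher and 608 lower with edgeR.

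Departures were also counted by how far a gene can be resolved by allele. Of the 14710 genes, 558 had no polymorphism between the strains in the authors' table, and 416 of these were lower and 1 was higher in F1, with a median log2 ratio of -2.50. Another 946 genes were polymorphic but had a mean under 10 allele-specific unique hits per F1 library, and 186 of these were lower and 11 higher. In the remaining 13206 genes, called allele-resolved here, 610 were higher and 230 lower. This set is chosen by reads in F1, so a gene whose F1 value fell could be removed by that fall, and nothing is read from its split by direction. Their median log2 ratio was 0.00 and 91.8% lay within 1.25-fold of the mid-parent value. Over bins of expression level, the median of the allele-resolved genes stayed between -0.02 and 0.04. The part of the hybrid transcriptome in the low totals of the unresolved genes was not tested.

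Genes were sorted into classes by combining the tests against the mid-parent, against each parent and between the parents. The strains differed at 6322 genes (43%). Of all genes, 1170 (7.95%) were additive, with a called strain difference, an F1 level called different from both parents and between them, and no departure from the mid-parent. Dominance was called for 439 genes toward B6 (2.98%) and 126 toward Cast (0.857%). Another 106 genes (0.721%) departed from the mid-parent while lying between the parents, which is partial dominance. F1 was above both parents at 206 genes (1.4%) and below both at 364 (2.47%), of which 251 were non-polymorphic. A further 4374 genes had a strain difference with an F1 level that these tests could not place. Without regard to a test, the 6 F1 libraries were all above the 6 F0 libraries at 230 genes (1.56%) and all below them at 353 (2.4%).

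Among the allele-resolved genes the classes held 1117 additive, 289 B6-dominant, 92 Cast-dominant, 70 partially dominant, 196 overdominant and 42 underdominant genes. Of the 289 B6-dominant genes 219 were higher in B6, and of the 92 Cast-dominant genes 69 were higher in Cast. Over all genes tested, 220 of the 439 B6-dominant genes were higher in B6 and 219 in Cast, and 70 of the 126 Cast-dominant genes were higher in Cast and 56 in B6. No test of these shares was run.

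**Figure D1:**
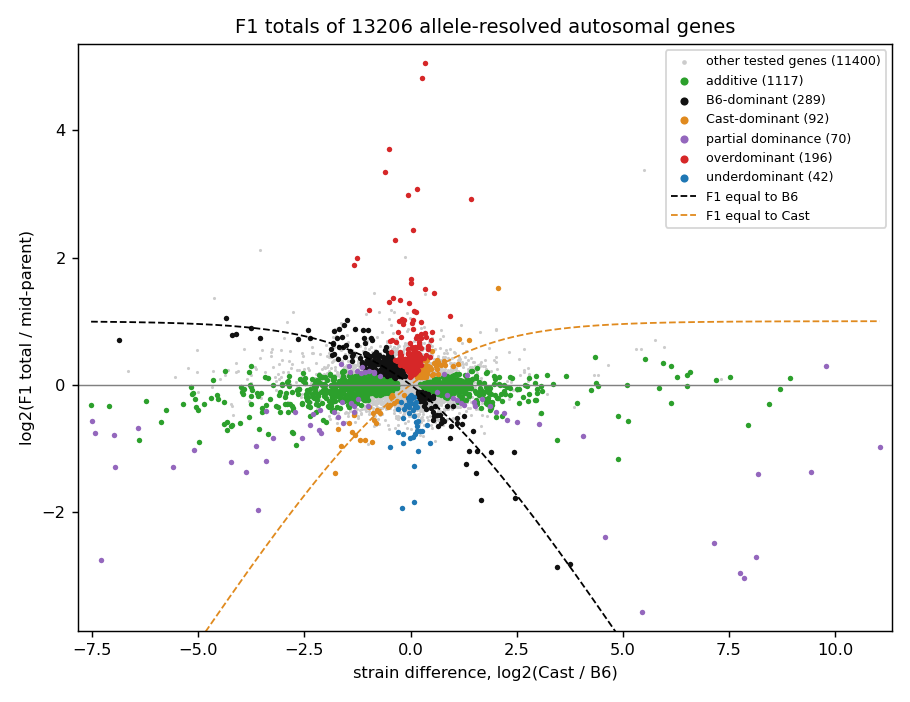
The log2 ratio of F1 total to mid-parent value (vertical axis) against the log2 strain difference Cast over B6 (horizontal axis) for the 13206 allele-resolved genes, each point a gene coloured by class, with dashed lines where F1 equals B6 or equals Cast. The 1117 additive genes lie along zero over the whole width, the 289 B6-dominant and 92 Cast-dominant genes lie near the dashed lines, and the 196 overdominant and 42 underdominant genes lie above and below them at small strain differences.

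Where the strains differed strongly, F1 totals of allele-resolved genes were mostly intermediate. That set is chosen by reads in F1, so genes whose F1 value fell can be missing from it. Over all genes 219 B6-dominant genes were higher in Cast, against 70 in the allele-resolved set. The position of F1 between the parents was expressed as a number that is -1 at the B6 level, 0 at the mid-parent value and 1 at the Cast level. In 1332 allele-resolved genes with a called strain difference of at least 2-fold, its median was -0.02 and its quartiles were -0.27 and 0.21. F1 lay between the parents in 1266 of them (95%) and within 0.5 of the mid-parent position in 1045 (78.5%). Of the 402 genes with a difference of at least 4-fold, 389 (96.8%) were between the parents and 333 (82.8%) within 0.5. Of 4341 genes with a difference of at least 1.25-fold, 2563 (59%) were nearer to B6, whereas at 4-fold 186 of 402 (46.3%) were.

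Several of the largest strain differences outside gene families were additive. Atp4b, the beta subunit of the gastric proton pump (chr8:13386209-13396778, NCBI37), had 5.53, 2.87 and 2.01 count equivalents in F0 B6 and 1000, 719 and 663 in F0 Cast, and its F1 totals ran from 384 through a median of 428.5 to 481. All 6 F1 libraries lay between the parents, and the log2 ratio to the mid-parent was 0.12 ± 0.21 (SE). In edgeR against a log-scale mid-parent the log2 ratio was 2.96 and was called. Within F1 nearly all of it came from the Cast allele, with a mean of 853 on that allele and 0.358 on the B6 allele. Gk5, a putative glycerol kinase (chr9:96019781-96085046), was listed at 38.9, 38.2 and 56.3 in F0 B6 and at 3800, 4430 and 4120 in F0 Cast, against 2207 to 2393 with a median of 2316 in F1 (log2 ratio 0.15 ± 0.10). Its alleles held a mean of 41.7 (B6) and 4558 (Cast) in F1.

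Genes of the additive class with the higher level in B6 are described next. Myo7a, the unconventional myosin mutated in Usher syndrome (chr7:105199570-105268034), had 530, 720 and 560 count equivalents in F0 B6 and 16.3, 27.1 and 24.2 in F0 Cast, and 228 to 302 with a median of 271 in F1 (log2 ratio -0.21 ± 0.14). Pttg1, which encodes securin (chr11:43233752-43239753), had 290, 209 and 213 in F0 B6, 7.66, 6.17 and 4.49 in F0 Cast, and 87.8 to 134 with a median of 97.2 in F1 (log2 ratio -0.22 ± 0.16). For both, the B6 allele carried most of the F1 total, with 520 against 18.7 for Myo7a and 195 against 12.9 for Pttg1. The 4 genes were taken from the additive class, which admits no called departure from the mid-parent. Their adjusted p values (limma) lay between 0.426 and 0.797 and are no separate evidence. The paralog-rich Amd2, Gm5561 and Tuba1c, which share between 60.0% and 86.1% of the 50-base words in their exons with other genes, were classed as additive alone and not as sums with their relatives, where the adjusted p against the mid-parent lay between 0.198 and 0.981.

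Additive inheritance reached abundant photoreceptor genes. Sag, which encodes the arrestin that ends the rod photoresponse, had means of 51333 in F0 B6, 116000 in F0 Cast and 85225 in F1 (log2 ratio 0.02 ± 0.06). Gngt1, the gamma subunit of rod transducin, had 8747, 17900 and 13510 (log2 ratio 0.02 ± 0.08). Impg2, a proteoglycan of the matrix around photoreceptors, had 5230, 9997 and 7660 (log2 ratio 0.01 ± 0.03). The photoreceptor transcription factor genes Prdm1 and Samd7 and the short-wavelength opsin gene Opn1sw were additive as well, at log2 ratios of -0.03, 0.17 and 0.02.

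Dominant genes with little or no shared exonic sequence are described first. Lrp2, the endocytic receptor megalin (chr2:69262397-69424122), was Cast-dominant, with 343, 440 and 389 count equivalents in F0 B6, 134, 149 and 166 in F0 Cast, and 152.5 to 174.5 with a median of 157.5 in F1. The F1 libraries overlapped the Cast libraries and none reached the B6 libraries. F1 was 0.74 ± 0.08 (SE) log2 units below the mid-parent (adjusted p = 6.0e-05), and F1 differed from B6 by -1.27 (adjusted p = 2.6e-06) and from Cast by 0.10 (adjusted p = 0.43). The B6 allele had a mean of 174 and the Cast allele 147 in F1, whereas the strains differed by 1.38 log2 units. Lrp2 kept this departure in each of the 29 alternative settings tried.

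Slco1c1, a thyroid hormone and organic anion transporter, was Cast-dominant in the other direction, with 82.1, 77.5 and 89.6 in F0 B6, 118, 137 and 134 in F0 Cast and 129 to 150 with a median of 134.5 in F1 (log2 ratio 0.35 ± 0.07, adjusted p = 0.0078). Its F1 alleles differed, with 97.3 for B6 and 174 for Cast. Snrnp35, a protein of the minor spliceosome, had 119, 134 and 99 in F0 B6, 198, 206 and 211 in F0 Cast and 181.5 to 212.5 in F1 (log2 ratio 0.31 ± 0.08, adjusted p = 0.028), and lost the call in 7 of 29 alternatives, 6 of them without 1 library. Rnf213, a large ubiquitin ligase, was called Cast-dominant at a log2 ratio of -0.34 (adjusted p = 0.043), but on FPKM, a length-scaled measure taken up below, it was additive (log2 ratio -0.21, adjusted p = 0.43), and the call was lost in 15 of 29 alternatives, 7 of them without 1 library. Dynlt1b, a dynein light chain and the last of the 4 genes with the largest strain difference in this class, shares 78.9% of its words with relatives, and their sum was additive.

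B6 dominance was called for Impg1, the other proteoglycan of the interphotoreceptor matrix (chr9:80161137-80359045). It had 5170, 5070 and 5220 count equivalents in F0 B6, 4170, 4080 and 4280 in F0 Cast and 5055 to 5585 with a median of 5310 in F1. The F1 and B6 libraries overlapped and all 6 F1 libraries exceeded the Cast libraries. The log2 ratio to the mid-parent was 0.19 ± 0.03 (adjusted p = 0.0029) and the call held in each of 29 alternative settings. Its relative Impg2 was additive, as given above.

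Cstb, the cysteine protease inhibitor cystatin B, had 176, 188 and 222 in F0 B6, 53.9, 57.3 and 68.1 in F0 Cast, and 143.5 to 225.5 with a median of 199 in F1 (log2 ratio 0.59 ± 0.12, adjusted p = 0.0062). Pla2g12a, a secreted phospholipase, had 154, 176 and 147 in F0 B6, 47.2, 64 and 51.2 in F0 Cast, and 127.5 to 153.5 in F1 (log2 ratio 0.44 ± 0.09, adjusted p = 0.0097). As the class requires, neither gene had F1 called against B6 (limma, adjusted p = 0.93 and 0.42). Both were also B6-dominant on FPKM, at log2 ratios of 0.62 and 0.46. Fndc1, a fibronectin type III domain gene, was B6-dominant on count equivalents at 0.86 but not on FPKM (0.52, adjusted p = 0.18).

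Much of the dominance, and the largest overdominance, lay in genes that share sequence with processed pseudogenes or close relatives. Words of 50 bases from the exons of each gene were looked up in the exons of all others, using the GENCODE annotation of NCBI37. At least 20% of the words were shared by 11.3% of all genes tested, 11.5% of the additive, 16.1% of the overdominant, 19.8% of the Cast-dominant, 39.9% of the underdominant, 41.3% of the partially dominant and 43.5% of the B6-dominant genes. The part of shared sequence in these calls was not tested. A stretch of 120 coding bases is shown for Fau, which encodes a ubiquitin-like protein fused to ribosomal protein S30. It was identical, with 0 mismatches in the reference genome, to a stretch of a copy elsewhere.
Fau, chr19:6058428-6058547, plus strand, also in Gm9843 at chr16:76403703-76403822, minus strand: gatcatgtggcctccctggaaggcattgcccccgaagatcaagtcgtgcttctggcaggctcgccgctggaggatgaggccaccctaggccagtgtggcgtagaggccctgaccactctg

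Fau and its copy moved in opposite directions. Fau had 114, 156 and 229 count equivalents in F0 B6, 136, 158 and 214 in F0 Cast and 857.5 to 909.5 with a median of 882 in F1, so all F1 libraries were above all F0 libraries (log2 ratio 2.43 ± 0.15, adjusted p = 3.3e-07). Gm9843 went from means of 1307 and 1647 in F0 B6 and F0 Cast to 491 in F1. The sum of both was 1473 ± 157 (SD, n = 3), 1816 ± 120 (n = 3) and 1372 ± 338 (n = 6), with no call against the mid-parent (log2 ratio -0.30 ± 0.16, adjusted p = 0.30). Within F1, Fau had a mean of 73.0 on the B6 allele and 1690 on the Cast allele. It had a mean of 1223 unique hits per F1 library against 18.0 per F0 library.

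For the other large overdominant genes of the rule for named genes, summed families were compared likewise. Rpl27, a protein of the large ribosomal subunit, had means of 47.0, 52.5 and 436 in F0 B6, F0 Cast and F1, while its copy Rpl27-ps3 had 1103, 1057 and 508. The summed family of 5 genes had a log2 ratio of -0.37 (adjusted p = 0.46). Rps13, Sec61g, Rpl27a and Gm6180, with log2 ratios between 1.51 and 2.28, were likewise not called once summed with their relatives, at log2 ratios between -0.83 and -0.04 and adjusted p between 0.062 and 0.76. The largest higher departures at means of 100 or more, those of Rpl38-ps2 (8.84), Gm5559 (8.54) and Gm15430 (8.12), belong to the Rpl38, Gapdh and Rpl39 families and rest on a mean of at most 1.33 allele-specific unique hits. Rpl38-ps2 and Gm15430 were not called as summed families (log2 ratios 0.12 and -0.24). The sum of the Gm15430 family includes Rpl39 on the X chromosome, of which F1 males carry the maternal copy alone. The part of this in the sum was not tested. The Gapdh family of 19 genes was lower in F1 as a sum, with means of 50303, 51258 and 26439 (log2 ratio -0.94, adjusted p = 5.0e-06).

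Eno1, the glycolytic enzyme enolase, had 27800, 32700 and 32700 in F0 B6, 2810, 2430 and 2680 in F0 Cast and 25700 to 29000 with a median of 28525 in F1. Its copies Gm5506 and Gm13699 had means of 16400 and 5687 in F0 Cast, against 1.75 and 4.69 in F0 B6 and 0.0285 and 2.79 in F1. The 3 together had 31073 ± 2834, 24727 ± 2284 and 28094 ± 1252, a log2 ratio of 0.01 ± 0.06 (adjusted p = 0.93). Ftl1, the ferritin light chain, had means of 1887, 15.4 and 1548 and its copy Gm10116 had 0.223, 1217 and 0.0452, and the summed family of 9 was additive (log2 ratio -0.01). Rps18, Rpl7a and Akr1b3, with Ftl1 the 4 B6-dominant genes with the largest strain difference, also lost the call in their sums (log2 ratios 0.14, -0.07 and 0.05). Rps18 had means of 1563 in F0 B6 and 78.0 in F0 Cast, and its family 1564 and 1541. The largest lower departures were those of Gm5506, Gm13699 and Gm8399, a copy of the gamma actin gene Actg1, whose family sum had a log2 ratio of 0.04 (adjusted p = 0.87).

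Of the B6-dominant genes, 205 had relatives by this measure and 34 kept the class in the summed family. Of 62 such overdominant genes 32 kept it, of 147 underdominant genes 77, of 34 Cast-dominant genes 16 and of 196 additive genes 115. With families summed throughout, 1035 of 13798 features departed from the mid-parent, 505 higher and 530 lower, and 254 were B6-dominant.

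**Figure D2:**
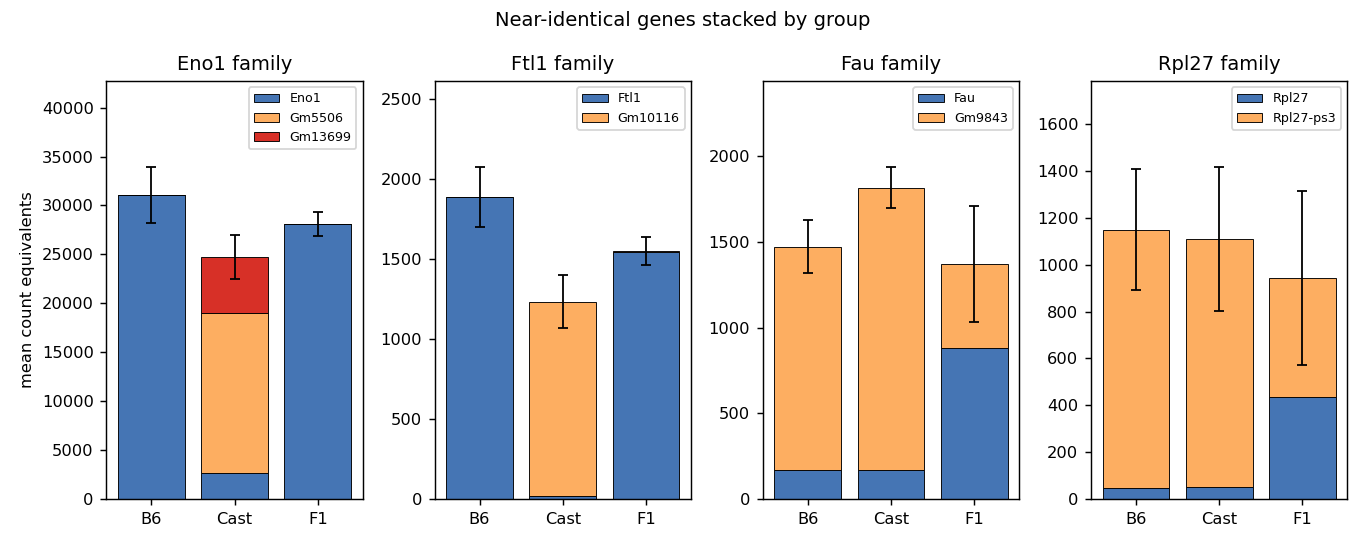
Mean count equivalents (vertical axis, linear from zero) of Eno1, Ftl1, Fau and Rpl27 and their near-identical copies, stacked by group (F0 B6 and F0 Cast, n = 3 each, and F1, n = 6), with the SD of the summed family as error bars. Eno1 and Ftl1 occupy the F0 B6 and F1 bars and their copies the F0 Cast bar, Fau and Rpl27 take a large part of the bar in F1 alone, and the bars as a whole differ less than their parts.

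The measure of expression also mattered. The deposited natural-log estimates give expression in FPKM, which weighs a gene's transcripts by their lengths, so the same classes were drawn from log2(FPKM + 0.1). Of the 1117 allele-resolved additive genes 795 were additive on FPKM too, and of 289 B6-dominant genes 169. The same class was found on FPKM for 49 of 196 overdominant, 13 of 42 underdominant and 21 of 92 Cast-dominant genes. Over all 14710 genes, 206 were overdominant on count equivalents, 91 on FPKM and 54 on both, while 301 of 364 underdominant genes were underdominant on both. The median log2 ratio of the 196 allele-resolved overdominant genes was 0.40 on count equivalents and 0.01 on FPKM.

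Rab11a, a small GTPase of recycling endosomes, shows the difference. It had 726, 808 and 791 count equivalents in F0 B6, 751, 876 and 913 in F0 Cast and 1260 to 2135 with a median of 1922 in F1, a log2 ratio of 1.14 ± 0.12 (adjusted p = 3.7e-05). In FPKM its means were 58.7, 57.1 and 51.2, a log2 ratio of -0.16 (adjusted p = 0.65). Its unique hits averaged 622 per F0 library and 78 allele-specific ones per F1 library. Mkln1, the E3 ligase scaffold muskelin, had 0.96 and -0.09 on the 2 measures. Arpp19, a phosphatase inhibitor, had 1.02 and 0.04, and Mesdc2, a chaperone of lipoprotein receptors, 1.01 and -0.13. None of these 4 genes shares more than 0.454% of its words with another gene. Pde6h, the inhibitory subunit of the cone phosphodiesterase, was overdominant on count equivalents (log2 ratio 0.33, adjusted p = 0.0044) and went the other way on FPKM (-0.17, adjusted p = 0.22).

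**Figure D3:**
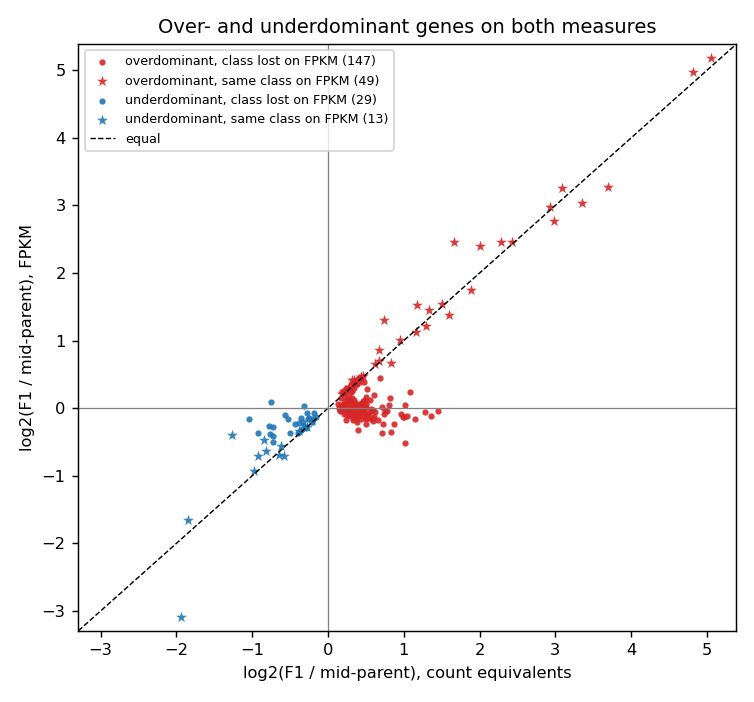
The log2 ratio of F1 to mid-parent on FPKM (vertical axis) against count equivalents (horizontal axis) for the 196 overdominant (red) and 42 underdominant (blue) allele-resolved genes. Stars are the 49 and 13 genes with the same class on both measures and lie mostly near the dashed line of equal values, and the other overdominant genes spread along zero on FPKM.

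In 20 genes F1 exceeded both parents on both measures, with enough allele-specific reads and under 1% of shared words. These genes, like the 6 underdominant ones described after them, were chosen after their values were seen. The allele-specific reads required of all 20 are counted in F1. Gm12913, a pseudogene, had the largest ratio (log2 4.82), with means of 1.23, 1.39 and 59. It passed the filter on count equivalents through F1 alone. That favours a high F1 value, so nothing is read from the direction of Gm12913. Clic6, a chloride intracellular channel protein (chr16:92485981-92541488), had 55.6, 37.6 and 41.2 in F0 B6, 41.8, 26.1 and 26.5 in F0 Cast and 85.0 to 102 with a median of 93.5 in F1. All F1 libraries were above all F0 libraries, with a log2 ratio of 1.30 ± 0.14 (adjusted p = 4.4e-05) on count equivalents and 1.21 on FPKM. Dap, a regulator of autophagy, had means of 63.7, 72.6 and 105 (log2 ratio 0.62 ± 0.08, adjusted p = 3.2e-04).

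Most of the others were small and precise. Lyve1, a hyaluronan receptor of lymphatic vessels and some macrophages (chr7:117994121-118006467), had 140, 127 and 138 in F0 B6, 126, 114 and 109 in F0 Cast and 154 to 178 with a median of 161.5 in F1 (log2 ratio 0.38 ± 0.07, adjusted p = 0.0027). Lynx1, a membrane-tethered modulator of nicotinic acetylcholine receptors (chr15:74578286-74583409), had 2610, 2590 and 2680 in F0 B6, 3090, 2590 and 2900 in F0 Cast and 3150 to 3505 with a median of 3340 in F1 (log2 ratio 0.28 ± 0.04, adjusted p = 9.1e-04). Slc6a11, the GABA transporter GAT-3 (chr6:114081235-114199880), had 2990, 2960 and 3100 in F0 B6, 3350, 3070 and 3290 in F0 Cast and 3415 to 3685 with a median of 3532 in F1 (log2 ratio 0.18 ± 0.03, adjusted p = 0.0027). In these 3 genes no F1 library overlapped an F0 library. The other 14 genes, among them Gm10118, 2010001A14Rik, 5730409E04Rik, Fam123c, Mblac2, Tmem126a, Tmem65, Bend6, Sebox, Gpd1l, Tmem50b, Ap3m2 and Tmem167b, had log2 ratios between 0.20 and 0.83.

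The unshared genes below both parents on both measures were Flot1, Sec13, Gfap, Lad1, C3 and Cryab. Gfap, the intermediate filament protein of astrocytes and reactive Mueller glia (chr11:102748650-102762226), had 189, 216 and 192 count equivalents in F0 B6, 118, 155 and 154 in F0 Cast and 63.65 to 101.85 with a median of 87.7 in F1. The highest F1 library was below the lowest F0 library. The log2 ratio to the mid-parent was -0.98 ± 0.12 (adjusted p = 2.0e-04), it was -0.93 on FPKM, and the call held in each of 29 alternative settings. Gfap had a mean of 136 unique hits per F0 library and 122 per F1 library, and its F1 alleles had means of 73.9 (B6) and 99.9 (Cast).

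C3, the central complement component (chr17:57343393-57367559), had 32.9, 31.5 and 54.7 in F0 B6, 47.9, 35.3 and 38.2 in F0 Cast and 17.5 to 24.3 with a median of 22.8 in F1 (log2 ratio -0.82 ± 0.16, adjusted p = 0.0061). C4b, another complement component (chr17:34865325-34880827), named after its values were seen, had 104, 86.7 and 103 in F0 B6, 108, 102 and 101 in F0 Cast and 20.2 to 35.9 in F1 (log2 ratio -1.84 ± 0.14, adjusted p = 1.6e-06). No F1 library of either gene reached an F0 library. C4b shares 34.6% of its words with another gene, and its unique hits were 68.2 per F0 library and 25.5 per F1 library. Cryab, the small heat shock protein alpha B-crystallin (chr9:50560863-50564738), had 398, 377 and 378 in F0 B6, 401, 384 and 405 in F0 Cast and 315.5 to 369.5 with a median of 331.5 in F1 (log2 ratio -0.21 ± 0.04, adjusted p = 0.0097). With F1 B6xCast alone Cryab was not called (limma, adjusted p = 0.17).

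Flot1, a scaffold of membrane microdomains, had a larger ratio with a weaker basis. It had 448, 489 and 455 in F0 B6, 490, 499 and 484 in F0 Cast and 134 to 295 with a median of 187 in F1 (log2 ratio -1.27 ± 0.16, adjusted p = 2.3e-04), but -0.40 on FPKM, and its unique hits fell from a mean of 367 per F0 library to 13.3 allele-specific ones per F1 library. Sec13, of the COPII coat, had -0.84 and -0.47 on the 2 measures with 34.7 unique hits in F1, and lost its call in 12 of 29 alternatives, including 9 in which 1 library was left out. Lad1, a basement membrane anchoring protein, had means of 25, 21.1 and 11.5 (log2 ratio -0.92, adjusted p = 0.0051). Gcdh and Psmd6, which the rule for named genes includes, had log2 ratios of -1.04 and -0.92 on count equivalents and were not underdominant on FPKM (-0.16 and -0.37).

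**Figure D4:**
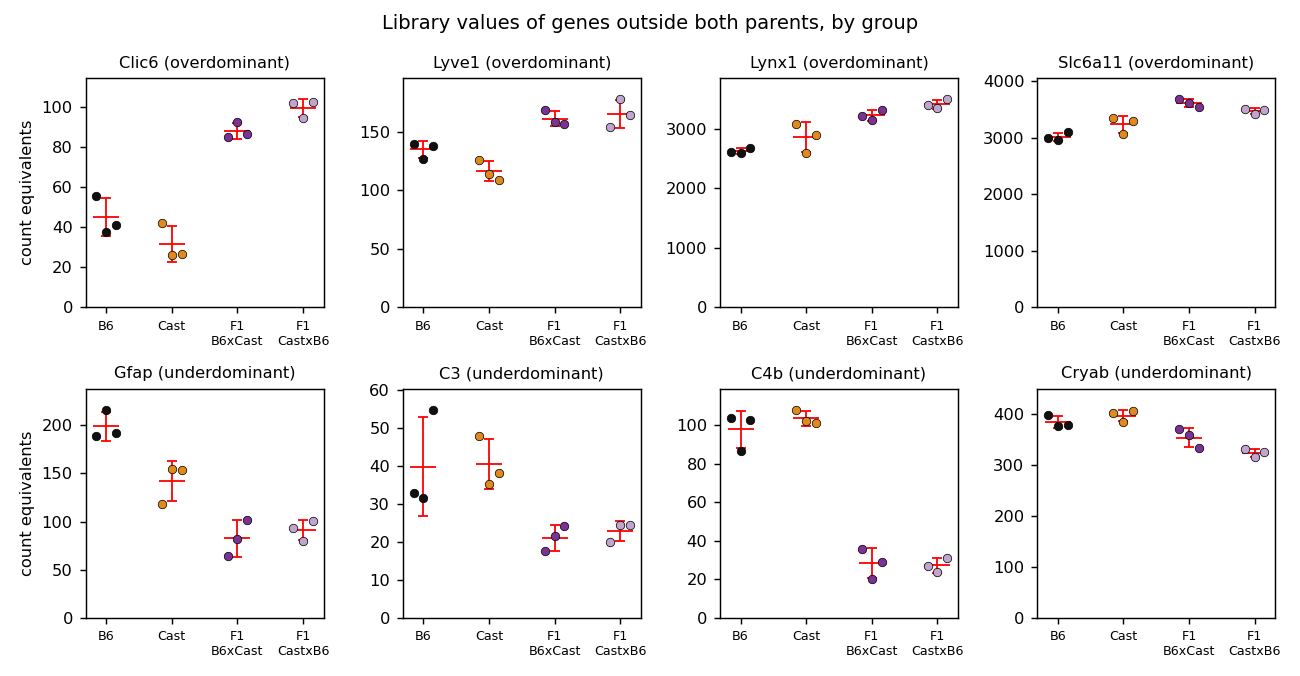
Count equivalents (vertical axes, linear from zero) of Clic6, Lyve1, Lynx1 and Slc6a11 (upper row, overdominant) and Gfap, C3, C4b and Cryab (lower row, underdominant) in the 3 libraries of each group, each point a library, with the group mean and SD in red. In each panel the 6 F1 libraries lie on 1 side of the 6 F0 libraries, with both reciprocal crosses on the same side.

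Of 11 measured genes of a list of gliosis and retinal injury, 5 were lower and none higher (45.5%, against 9.88% of all genes). Below zero were 10 of the 11, against 7930 of all 14710 genes. The median log2 ratio was -0.48, against -0.01 over all genes tested. Besides Gfap, the genes called lower were Edn2, Stat3, Nupr1 and Serpina3n. Edn2 passed the filter of 10 count equivalents through F0 B6 alone, which favours a low F1 value. Edn2, an endothelin that stressed photoreceptors release, had 72.3, 40.6 and 28.6 in F0 B6, 8.57, 2.4 and 5.75 in F0 Cast and 0.585 to 3.49 with a median of 1.94 in F1 (log2 ratio -3.14, adjusted p = 2.7e-04), with a mean of 4 unique hits per F1 library. Stat3, the transcription factor downstream of the interleukin-6 cytokine family, had 939, 1060 and 1020 in F0 B6, 933, 994 and 957 in F0 Cast and 814 to 886 with a median of 844 in F1 (log2 ratio -0.21 ± 0.04, adjusted p = 0.0032). Its F1 libraries were all below the F0 libraries, and on FPKM the log2 ratio was -0.20 with an adjusted p of 0.11.

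Nupr1, a stress-induced chromatin protein, had means of 70.4, 11.7 and 22.5 (log2 ratio -0.83, partial dominance), and lost the call in 6 of 28 alternatives. Serpina3n, an acute-phase protease inhibitor, had 40.7, 66.6 and 38.2 (log2 ratio -0.48, adjusted p = 0.036), and lost the call in 12 of 27 alternatives, 7 of them without 1 library. Lcn2, Fgf2, A2m and Cebpd had log2 ratios between -0.54 and -0.32 with adjusted p between 0.098 and 0.39. Socs3 had 0.12. On FPKM 3 of the 11 were lower at a median of -0.42, against a log-scale mid-parent 4 were lower, and without 1 library at a time 3 to 5 were called, the 3 without F1 CastxB6 replicate 3. With F1 B6xCast alone 2 were called and with F1 CastxB6 alone 3. The 6 markers of astrocytes and gliosis, in part the same genes, summed to between 398 and 435 count equivalents per F0 B6 library, between 315 and 334 per F0 Cast library and between 216 and 251 per F1 library, and no marker of the list was at 0 throughout. In these bulk samples, fewer cells of a type and less RNA per cell cannot be told apart. The 9 Mueller glia markers showed no such shift, with a median log2 ratio of 0.02. Of these, Clu, the chaperone clusterin, was called lower and Cast-dominant (log2 ratio -0.16, adjusted p = 0.023), and the call was lost in 7 of 29 alternatives.

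**Figure D5:**
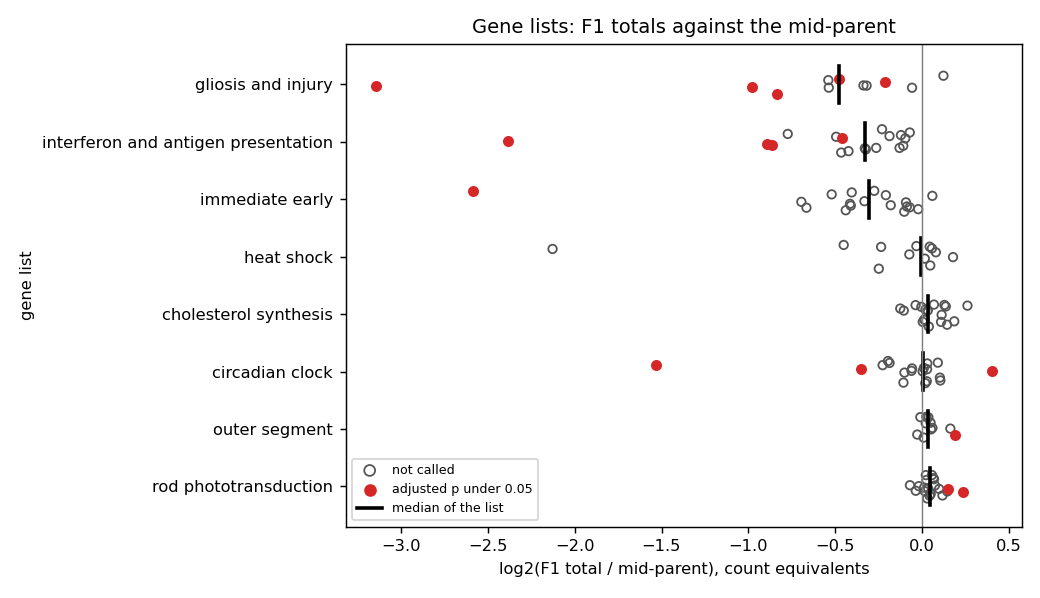
The log2 ratio of F1 total to mid-parent (horizontal axis) for the measured genes of 8 lists (vertical axis), each point a gene, filled where the adjusted p was under 0.05, with the list's median as a bar. The medians of the gliosis and injury, interferon and antigen presentation, and immediate early lists lie at -0.48, -0.33 and -0.30, and those of the other 5 lists lie between -0.01 and 0.05.

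Of 18 measured interferon-induced and antigen presentation genes, 4 were called lower than the mid-parent and none higher (22.2%, against 9.88%), each of the 4 with its lower parental level in F0 Cast. All 18 had a log2 ratio below zero, against 7930 of all 14710 genes, with a median of -0.33. Of the 6 that were allele-resolved with under 1% of shared words, limma and edgeR called 0 and 2 had an unadjusted p under 0.05. Fitted with genes averaging 50 or more count equivalents alone, limma called 0 of 11, with 5 at an unadjusted p under 0.05. Ifit1, an RNA-binding protein of the antiviral response (chr19:34715361-34724499, NCBI37), had 34.1, 26 and 34.8 in F0 B6, 14.7, 14.9 and 13.3 in F0 Cast and 10.2 to 17.2 with a median of 11.4 in F1 (log2 ratio -0.87 ± 0.15, adjusted p = 0.0022). Usp18, the protease that removes ISG15, had 10.1 to 17.6 in F0 B6 and at most 0.917 in F0 Cast, and a median of 0.0420 in F1 with a highest value of 3.04 (log2 ratio -2.38, adjusted p = 0.0085). Isg15, a ubiquitin-like modifier, had means of 13.5, 5.44 and 4.79 (adjusted p = 0.039). These 3 were Cast-dominant. Usp18 passed the filter of 10 count equivalents through F0 B6 alone, and F0 B6 was the only group in which Isg15 had a mean above 10. That filter favours a low F1 value in both, so nothing is read from their direction. Ifit3 had 137, 27.6 and 59.8 (log2 ratio -0.46, adjusted p = 0.049) and lay between the parents.

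Irf7, the master regulator of the type I interferon response, had means of 257, 22.2 and 74.9 (log2 ratio -0.77, adjusted p = 0.15), and the class I genes H2-K1 and H2-D1 were additive. The list depends on how the parents are averaged. Against the log-scale mid-parent, which weighs the lower parent more, 14 of the 18 were below zero with a median of -0.15, 3 were called lower and 1 higher with limma, and edgeR called 1 in each direction. Isg15 lost its call in 18 of 26 alternatives and Ifit3 in 21 of 27, whereas Ifit1 kept it in all 27. Usp18 and Isg15 had a mean of 0.500 and 7.33 allele-specific unique hits per F1 library.

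The promoters of these genes are known for the interferon-stimulated response element, through which the factor ISGF3 acts. The RefSeq promoter tables on GRCm38.p6 held Ifit1, Ifit3 and Isg15. Each is shown from 250 bases before to 50 after the start site, with the searched motif in capitals: GAAA, any 2 bases and GAAA again, on either strand, overlapping matches included.
Ifit1, chr19:34640639-34640938, plus strand: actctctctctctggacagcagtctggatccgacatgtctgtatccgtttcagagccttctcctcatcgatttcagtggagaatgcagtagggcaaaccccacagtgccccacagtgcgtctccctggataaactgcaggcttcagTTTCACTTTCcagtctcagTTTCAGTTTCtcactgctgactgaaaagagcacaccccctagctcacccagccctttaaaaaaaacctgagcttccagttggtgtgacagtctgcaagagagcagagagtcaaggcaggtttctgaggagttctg
Ifit3, chr19:34583279-34583578, plus strand: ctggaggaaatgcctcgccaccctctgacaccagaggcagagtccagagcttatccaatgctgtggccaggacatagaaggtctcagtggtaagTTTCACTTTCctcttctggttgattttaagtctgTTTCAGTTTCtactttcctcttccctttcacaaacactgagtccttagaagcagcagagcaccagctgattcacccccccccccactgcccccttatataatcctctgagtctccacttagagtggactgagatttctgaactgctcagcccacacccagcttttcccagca
Isg15, chr4:156200769-156201068, minus strand: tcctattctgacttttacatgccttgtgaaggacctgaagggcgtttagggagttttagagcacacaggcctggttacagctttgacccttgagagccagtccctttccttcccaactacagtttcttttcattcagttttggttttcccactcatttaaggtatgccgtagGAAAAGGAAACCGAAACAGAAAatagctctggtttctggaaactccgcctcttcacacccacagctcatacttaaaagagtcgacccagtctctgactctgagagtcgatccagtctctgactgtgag
Ifit1 and Ifit3 held 2 matches each and Isg15 held 3, and 1131 of 32851 promoters in the table (3.44%) held at least 1. These are letters in the C57BL/6J reference and say nothing of the Cast allele.

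Of 18 measured immediate early genes, which neurons and stressed cells transcribe within minutes, 1 was called (5.56%, against 9.88% of all genes). Below zero were 17 of the 18, against 7930 of all 14710 genes, and the median was -0.30. An unadjusted p under 0.05 (limma) was found for 8 of them, against 3333 of all 14710 genes. Egr3 was called, at means of 12.3, 6.65 and 0.758 with 0 allele-specific unique hits. Egr1 had 1014, 333 and 455 (log2 ratio -0.44, adjusted p = 0.30), Nr4a1 862, 434 and 441 (-0.52, adjusted p = 0.074) and Fos 503, 311 and 343 (-0.21, adjusted p = 0.43). EdgeR called 1 gene. Without 1 library at a time 1 to 5 were called, the 5 without F1 B6xCast replicate 1, with a list median of -0.33. Over these fits the list median ran from -0.36 to -0.19, the last without F0 B6 replicate 2. With F1 B6xCast alone the median was -0.14 and with F1 CastxB6 alone -0.36. The study's methods give a similar hour of collection for all samples.

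Among 19 clock genes, Bhlhe41 was called higher and Per1 and Npas2 lower (15.8%, against 9.88% of all genes). Per1, a light-inducible repressor of the clock, had 1790, 2140 and 1840 in F0 B6, 2320, 2040 and 2040 in F0 Cast and 1340 to 2070 with a median of 1540 in F1 (log2 ratio -0.35 ± 0.07, adjusted p = 0.0068). F1 B6xCast replicate 1, at 2070, lay within the F0 range, and with F1 B6xCast alone Per1 was not called (adjusted p = 0.34). Bhlhe41, a transcriptional repressor, had 0.40 on count equivalents (adjusted p = 7.3e-04) and -0.02 on FPKM. Npas2 is without allele-specific unique hits. The median of the list was 0.00.

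Of 20 rod phototransduction genes, 2 were higher and none lower (10%, against 9.88% of all genes), with log2 ratios between -0.07 and 0.24. Pdc, phosducin, which binds the transducin beta and gamma subunits (chr1:152166547-152181035), had 27100, 28400 and 28600 in F0 B6, 22700, 24900 and 23900 in F0 Cast and 27050 to 32150 with a median of 31075 in F1 (log2 ratio 0.24 ± 0.05, adjusted p = 0.0071). Pdc lost the call in 2 of 29 alternatives, with F1 CastxB6 alone and with no filter on low values. Cnga1, a subunit of the rod cyclic nucleotide-gated channel, had a log2 ratio of 0.15 (adjusted p = 0.047) and lost the call in 19 of 29 alternatives. Both were B6-dominant. Of 11 outer segment genes Impg1 was called (9.09%), and of 9 cone phototransduction genes Pde6h (11.1%). Of 13 photoreceptor transcription factor genes Esrrb and Rxrg were lower (15.4%), at log2 ratios of -0.17 and -0.29. Neither of the 2 was called on FPKM, and each lost the call in 13 of 29 alternatives.

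Among markers of inner retinal cells, Cabp5, a calcium sensor of bipolar cells, had 979, 1090 and 1050 in F0 B6, 2720, 2500 and 2670 in F0 Cast and 1970 to 2070 in F1 (log2 ratio 0.15 ± 0.04, adjusted p = 0.029), which was partial dominance toward Cast. The call was lost in 10 of 29 alternatives, 6 of them without 1 library. Its F1 alleles held 1087 (B6) and 2982 (Cast). Calb1, calbindin of horizontal cells, was overdominant on count equivalents (0.45) and not on FPKM (0.06). Each was the single call among 8 bipolar and 4 horizontal cell markers (12.5% and 25%, against 9.88% of all genes). Limma called 0 of 10 ganglion cell, 0 of 8 amacrine cell and 0 of 8 vessel markers, with 2, 1 and 0 at an unadjusted p under 0.05 and 1, 0 and 0 called by edgeR. Additive totals were found for 3 of 10 ganglion cell, 1 of 8 amacrine cell and 2 of 8 vessel markers, against 7.95% of all genes.

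Of 84 cytosolic ribosomal protein genes, 21 were higher and 4 lower (29.8%, against 9.88% of all genes, of which 4.23% were higher and 5.66% lower), with 7 overdominant and 11 B6-dominant. Without F0 B6 replicate 1 the calls fell from 25 to 16. Of the 84 genes, 8 were allele-resolved with under 1% of shared words, and 0 of the 8 were called by limma, 0 by edgeR and 0 had an unadjusted p under 0.05. Of 72 nuclear genes of oxidative phosphorylation, 3 were higher and 4 lower (9.72%). Atp5e, the epsilon subunit of ATP synthase, was B6-dominant with means of 306, 107 and 414 (log2 ratio 1.01 ± 0.16, adjusted p = 0.0012, and 1.19 on FPKM). Ndufb4, Sdhd and Ndufa2 were lower, each without allele-specific unique hits. Ndufb4 summed with its relative Gm3244 was not called (limma, log2 ratio -1.31, adjusted p = 0.096). With F1 CastxB6 alone Ndufa2 was not called (limma, log2 ratio -0.14, adjusted p = 0.91). The other calls were Uqcrb, lower with 3.17 such hits, Uqcrq, overdominant at a log2 ratio of 0.60, and Ndufb2, B6-dominant at 0.20. On FPKM Uqcrq stood at -0.03, without a called difference. In glycolysis the 2 calls of 16 (12.5%) were Eno1 and Gapdh, the families given above.

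Of 17 glutathione S-transferase genes 3 were lower and none higher (17.6%, against 9.88%). Gstp2 was called lower at a log2 ratio of -2.40, and summed with its neighbour Gstp1 it had 0.05 and was additive. Gstm6 and Gstt3 had 0 and 8.33 allele-specific unique hits, and Gstt3 lost its call in 8 of 25 alternatives. Of 11 crystallin genes Cryab was the call (9.09%), and of 313 numbered Zfp zinc finger genes 13 were higher and 11 lower (7.67%). Limma called 0 of 12 heat shock and 0 of 18 cholesterol synthesis genes, with 3 and 4 at an unadjusted p under 0.05, and edgeR called 0 and 2.

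Some sums of markers of other tissues also differed between groups. The blood markers summed to between 693 and 1041 count equivalents per F0 B6 library, 373 and 639 per F0 Cast library and 277 and 373 per F1 library. The alpha-globin genes Hba-a1 and Hba-a2 were together lower in F1 (limma, log2 ratio -1.71, adjusted p = 1.9e-05), with 0 allele-specific unique hits for each. They were the 2 limma calls among 4 blood markers tested. The 2 allele-resolved blood markers had a median log2 ratio of 0.09 and 0 calls. EdgeR called 1 of the 4 higher and 1 lower. Of 8 microglia markers P2ry12 was called (12.5%, against 9.88% of all genes), also with 0 allele-specific unique hits. The sum of the microglia markers was 357 to 386 in F0 B6, 188 to 293 in F0 Cast and 213 to 259 in F1. The pigment epithelium markers summed to 274 to 305, 134 to 163 and 156 to 328, and the lens markers to 34.8 to 291, 128 to 330 and 163 to 331, with 0 calls by limma or edgeR in 7 and 6 genes and 1 and 0 at an unadjusted p under 0.05. Markers of cornea, sclera and muscle summed to between 147 and 194 in every library, and Col1a2 was called lower and B6-dominant (log2 ratio -1.04, but -0.07 on FPKM). The part of blood or other tissue in the lower totals of F1 was not tested.

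The reciprocal crosses F1 B6xCast and F1 CastxB6 differed at 12 genes (0.0816%), of which 7 were pseudogenes, 3 of them on chromosome 2 and 3 on chromosome 4. With F1 B6xCast alone 950 departures were called and with F1 CastxB6 alone 1033, both against the same F0 libraries. Tmsb10, which encodes thymosin beta 10, was lower in F1 B6xCast by 0.84 ± 0.10 log2 units (adjusted p = 0.0059). Zdbf2, an imprinted gene expressed from the paternal allele, was higher in F1 B6xCast by 0.76 ± 0.11 (adjusted p = 0.024), with an F1 total close to the mid-parent (log2 ratio -0.08). Aqp3 and Ndufa2 had a mean of 6.67 and 0 allele-specific unique hits.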

How the data were processed

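Polyadenylated RNA of pooled adult male retinas was sequenced in 12 libraries. According to the submitters' processing notes, the authors trimmed reads with Trim Galore 0.2.6 and aligned them with Bowtie 0.12.9 to Ensembl transcripts of the mouse build NCBI37, strain-specific for F0 and hybrid for F1, and estimated expression with MMSEQ. The deposited gene table holds normalized, non-integer signal values, here called count equivalents, for each F0 library and each allele of each F1 library. The authors also deposited unique hits, which are raw whole-number counts of reads assignable to a single gene or allele, and MMSEQ's natural log estimates, whose exponent is in FPKM. A table of the authors' comparisons (fold changes, posterior probabilities) was used only for its polymorphism column, and 54 other per-sample columns were not used.

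The F1 total was the mean of the allele columns. Autosomal genes reaching 10 count equivalents in 3 or more libraries were fitted by limma 3.58.1 (R 4.3.3) on log2(value + 1) with group as the term and a trended prior. The arithmetic mid-parent was compared with F1 by the delta method, and p-values were adjusted by Benjamini-Hochberg over all genes fitted. Overdominant or underdominant genes had F1 called above or below both parents. Dominant genes had a called strain difference, a called departure toward 1 parent and no call against that parent. Additive genes had F1 between the parents, called against both and not against the mid-parent. The fit was tested on simulated data. FPKM values used log2(FPKM + 0.1), and edgeR 4.0.16 was an alternative on rounded values. Words of 50 bases came from GENCODE exons on NCBI37. Genes that share at least 50 words and 20% of the smaller gene's words were summed as families. Families with an autosomal member were kept, and members on the X chromosome, such as Rpl39, Rpl7a-ps11 and Gm14760, stayed in their sums. Figures were drawn with matplotlib 3.10.9.

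Named genes were, among polymorphic protein-coding genes averaging 100 or more count equivalents and 10 or more allele-specific unique hits, the 6 over- and 6 underdominant genes with the largest departures and no overlap with either parent, and the 4 B6-dominant, 4 Cast-dominant and 4 additive genes with the largest strain difference. The 3 largest departures in each direction at that mean, whatever the biotype, and called members of the lists were added. Some genes that the rule names are not reported here. The members and lists were chosen with earlier results of these data known, and other genes were named after their values were seen, as were the allele-resolved and unshared sets. The study describes its replicates as biological, each made from pooled retinas. The labels used here say nothing of the animals in each pool, and p-values measure the spread between these libraries.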

Additional observations from a re-analysis of the deposited data

Results flagged for a closer look

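Ndufa2, a subunit of respiratory complex I, differed between the reciprocal crosses: F1 B6xCast was lower than F1 CastxB6 by a log2 difference of -3.91 ± 0.54 (SE; limma, adjusted p = 0.019). Its result was drawn out because 2 groups differed in a test of the difference itself. The gene is not polymorphic between the strains, has 0 allele-specific unique hits in F1, and was underdominant over both crosses together. With F1 CastxB6 alone it was not called against the mid-parent (limma, log2 ratio -0.14, adjusted p = 0.91).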

How the results depend on the processing

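Relative to 1454 departures, 206 overdominant, 364 underdominant, 1170 additive, 439 B6-dominant and 126 Cast-dominant genes and 12 genes that differed between the crosses, these settings moved a count by over 1.5 times. With no filter on low values 2207 departures were called. At a mean of at least 50 count equivalents 189 genes were underdominant and 83 Cast-dominant. On FPKM 91 were overdominant and 78 Cast-dominant. F1 B6xCast alone gave 950 departures, 291 B6-dominant and 80 Cast-dominant genes, and F1 CastxB6 alone 767 additive and 66 Cast-dominant genes. Polymorphic genes alone gave 922 departures, 112 underdominant, 83 Cast-dominant and 7 genes that differed between crosses, and protein-coding genes alone gave 5 of the last. Requiring 1.5-fold beyond the nearer parent left 48 overdominant genes. The remaining settings were chosen after seeing the data. Fitted alone, allele-resolved genes gave 653 departures, 42 underdominant, 220 B6-dominant, 57 Cast-dominant and 5 cross-dependent genes. Unshared genes alone gave 348 departures, 121 overdominant, 24 underdominant, 777 additive, 109 B6-dominant, 33 Cast-dominant and 3 cross-dependent genes, and sums over near-identical genes 254 B6-dominant genes. Fewer genes enter these fits, and the cause of the other shifts was not tested.

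Without 1 library at a time the counts ran from 1118 to 1569 departures, 163 to 226 overdominant, 293 to 383 underdominant, 891 to 1148 additive, 329 to 487 B6-dominant and 65 to 127 Cast-dominant genes and 9 to 19 between the crosses. The Cast-dominant count was 65 without F1 CastxB6 replicate 3, 67 without its replicate 2, 78 without its replicate 1, 70 and 76 without F1 B6xCast replicates 2 and 3, and 77 without F0 B6 replicate 2. The 19 genes between crosses were found without F1 B6xCast replicate 2. Among 66 named genes, 33 of the 62 called kept direction and call in every setting, and 193 of 1795 comparisons lost the call. Atp4b gained a call, at 2.96, in edgeR against the log-scale mid-parent. Reversals were -0.17 for Pde6h and -0.024 for Bhlhe41 on FPKM, and 3.50, 4.44 and 2.31 for the additive Amd2, Gm5561 and Tuba1c in edgeR against the log-scale mid-parent, which lies far below the arithmetic one for such strain differences.

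Replicate numbers did not meet the rule for pairing: deviations of same-numbered libraries correlated between -0.11 and 0.30, over 0.1 in 6 of 18 pairs against 2 of 36 pairs with different numbers, and 5 of 12 libraries correlated best with their own number. With the number as a replicate block 1666 departures, 238 overdominant, 395 underdominant, 1291 additive, 528 B6-dominant and 146 Cast-dominant genes and 10 between the crosses were called. The F1 totals of genes with under 10 allele-specific unique hits rest on few reads assignable to an allele, and the part of depth in this was not tested.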
